A study of Mus musculus with 30 samples.

Results

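The treatment comparison described here set 5 salivary gland arrays of mice given anti-CD40L antibody against 5 arrays of mice given a control antibody, all taken at week 16. The 10 arrays are those whose titles give week 16, out of 30 arrays in the series. All mice were females of the NOD.H-2h4 strain. The anti-CD40L group was injected once, at 4 weeks of age, with the antibody at 20 mg/kg into the peritoneum, and the control group likewise with a human IgG1 isotype antibody. The glands were therefore sampled 12 weeks after the dose. Total RNA of the whole gland (2 ug) was labelled and measured on Affymetrix whole-genome mouse arrays, and the titles call the arrays of a group biological replicates. The labels do not say whether an array held RNA of 1 mouse, so p values measure a spread between arrays. The statistical model pools this spread over all 6 groups of the series, so a standard error is not the spread of the week 16 arrays alone. Arrays of weeks 8 and 24, with 5 anti-CD40L and 5 control arrays each, entered the statistical model and served for the comparison between weeks.

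CD40L is a surface protein of activated helper T cells. It engages CD40 on B cells, dendritic cells and macrophages, and this signal drives germinal centres, class switching and the formation of long-lived antibody-secreting cells. NOD.H-2h4 mice develop autoimmune inflammation of the thyroid and salivary glands, in which lymphocytes gather around ducts. In a normal gland, plasma cells between the acini make polymeric IgA that the epithelium carries into saliva.

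Values are log2 intensities, and every difference is anti-CD40L minus control with its standard error from 1 limma model of all 30 arrays. A gene was called when its p value, adjusted by the Benjamini-Hochberg method over 12999 tested genes, was under 0.05. At week 16 this held for 245 genes (1.88%), of which 170 were higher (1.31%) and 75 lower (0.577%) in the anti-CD40L group, and 60 of the 245 differed by more than 2-fold. For comparison, 1910 genes (14.7%) had an unadjusted p under 0.05. All 5 anti-CD40L arrays lay above all 5 controls for 784 genes (6.03%) and below them for 392 genes (3.02%), and these genes held 195 of the 245 called genes. The median difference over all tested genes was 0.02, and 46.4% of them were below 0. For 9 of the 75 lower genes all 5 anti-CD40L arrays, and for 15 of the 170 higher genes all 5 controls, were below the median probe set of their array. Such a gene could pass the filter for dim probe sets only through other arrays, and the size of its difference against a dim signal is not sure.

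The markers of the labelled tissue were high in all 10 arrays. Aqp5, the water channel of acinar cells, lay between 12.02 and 12.21 in the anti-CD40L arrays and between 11.70 and 11.99 in the controls. Klk1, a kallikrein of the ducts, lay between 14.13 and 14.18 in the anti-CD40L arrays and between 14.14 and 14.22 in the controls. A parotid transcript was uneven between arrays: Amy1, the parotid amylase, measured 7.34, 12.41, 7.95, 12.21 and 9.41 in anti-CD40L replicates 1 to 5 and 12.38, 7.93, 8.95, 13.45 and 7.27 in control replicates 1 to 5. Anti-CD40L replicates 2 and 4 and control replicates 1 and 4 thus had an Amy1 level above 10, and the other 3 arrays of each group were below it. Amy1 did not separate the groups (exact permutation p = 0.929, two-sided). Neither did RNA quality, taken as the gap between 3' and 5' probe sets of control genes, which averaged 0.260 ± 0.0481 in anti-CD40L arrays and 0.291 ± 0.0661 in controls (SD, n = 5 each, exact permutation p = 0.413). The 4 array measures tested had adjusted p values of 0.561 to 0.929, and 5 arrays against 5 cannot give an exact p below 0.00794.

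Single arrays stood apart in some respects. Control replicates 1 and 4, both with Amy1 above 10, had the highest levels of lymphocyte, MHC class II and interferon gamma transcripts of the 10 arrays. Among the anti-CD40L arrays, replicate 5 had the highest and replicate 4 the lowest level of cell division transcripts.

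Cd40lg, which encodes CD40L, was at the low end of the array scale in both groups, at 4.75, 4.82, 4.69, 5.22 and 4.89 in anti-CD40L arrays and 4.76, 4.62, 5.06, 5.01 and 4.85 in controls, and it was not tested because it lay under the filter for dim probe sets. Cd40, its receptor, measured 6.07, 5.77, 6.04, 5.81 and 5.87 in anti-CD40L arrays and 6.49, 6.30, 6.06, 6.60 and 6.14 in controls. The Cd40 groups touched only through control replicate 3, and the difference did not pass (-0.41 ± 0.16, adjusted p = 0.198). Among genes that respond to CD40 and NF-kB, limma called 0 of 10 tested (2 at an unadjusted p under 0.05) and the median difference was -0.11.

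The largest falls were of antibody transcripts. Jchain, which links antibody units into polymeric IgA and IgM, measured 9.30, 8.80, 8.35, 8.43 and 9.07 in anti-CD40L arrays and 12.59, 12.23, 11.49, 12.47 and 11.89 in controls. Every anti-CD40L array lay well below the lowest control, and the difference was -3.34 ± 0.34, adjusted p = 7.34e-07, a 10.1-fold lower level. Igk, the constant region of the kappa light chain, measured 8.34, 7.80, 7.53, 7.41 and 7.76 in anti-CD40L arrays and 10.56, 10.28, 9.69, 10.48 and 10.04 in controls (-2.44 ± 0.23, adjusted p = 2.71e-07). For Igha, the heavy chain of IgA, the anti-CD40L arrays gave 11.96, 11.55, 10.81, 11.26 and 11.50 and the controls 13.69, 13.50, 13.13, 13.53 and 13.40 (-2.03 ± 0.27, adjusted p = 5.14e-05). The other Igha probe sets differed by -2.25 and -3.06. The Igha groups were far apart, and the 5 controls lay close together. Iglv1, a lambda variable gene, measured 6.97, 6.87, 6.36, 6.04 and 7.60 in anti-CD40L arrays and 10.66, 9.66, 9.90, 11.04 and 8.91 in controls (-3.27 ± 0.49, adjusted p = 0.000401). Of the 7 tested immunoglobulin constant and joining genes 5 fell (0.577% of all genes did) and 0 rose, with a list median of -2.03. The fifth was Igll1, a surrogate light chain gene with all anti-CD40L arrays below the array median (-0.70 ± 0.15, adjusted p = 0.0103). In whole gland RNA, fewer antibody-secreting cells and less antibody RNA per cell cannot be told apart.

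Heavy chains other than IgA did not pass. Ighm, the IgM heavy chain, measured 8.73, 7.40, 9.03, 7.02 and 7.31 in anti-CD40L arrays and 9.85, 8.48, 7.54, 12.52 and 8.37 in controls. Control replicate 4 stood far above all other arrays, and the groups overlapped (-1.45 ± 0.77, adjusted p = 0.395). Ighg3, the heavy chain of IgG3, was level in both groups, at 6.12, 5.98, 5.90, 6.07 and 6.20 in anti-CD40L arrays and 6.30, 6.01, 5.46, 7.26 and 6.20 in controls (-0.19 ± 0.41, adjusted p = 0.902).

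All 7 tested kappa variable genes fell (0.577% of all genes did), with a median of -2.77. This list was assembled after values of these data had been seen. It had 13 genes on the array, and only these 7 passed the filter for dim probe sets. Igkv8-30 measured 10.45, 9.73, 9.56, 9.47 and 9.96 in anti-CD40L arrays and 12.81, 12.51, 11.95, 12.77 and 12.36 in controls (-2.65 ± 0.29, adjusted p = 3.31e-06). Its groups were far apart. Igkv6-20, a dimmer gene, measured 5.21, 4.66, 3.66, 5.06 and 3.86 in anti-CD40L arrays and 9.15, 7.85, 6.36, 9.80 and 6.28 in controls (-3.40 ± 0.53, adjusted p = 0.000509). The controls of Igkv6-20 were widely spread, with replicates 4 and 1 highest, whereas those of Igkv8-30 lay close together. The dim gene Igkv6-14 had 4.42, 4.004, 3.81, 3.77 and 3.94 in anti-CD40L arrays and 7.50, 6.10, 5.48, 8.68 and 6.75 in controls (-2.91 ± 0.45, adjusted p = 0.000441). For Igkv6-20 and Igkv6-14 all anti-CD40L arrays were below the array median, so the sizes of their differences are not sure. Probes for variable genes can share sequence with their relatives, so a signal belongs to the probe set rather than surely to 1 gene.

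Markers of plasma cells went both ways. Mzb1, a chaperone that helps B lineage cells secrete antibody, measured 6.77, 6.31, 6.66, 6.24 and 6.20 in anti-CD40L arrays and 9.32, 8.68, 7.86, 9.68 and 8.24 in controls (-2.32 ± 0.34, adjusted p = 0.000358). Tnfrsf17, the survival receptor BCMA of plasma cells, measured 4.62, 4.45, 4.32, 4.37 and 4.33 in anti-CD40L arrays and 5.70, 5.01, 4.95, 5.57 and 4.995 in controls (-0.82 ± 0.21, adjusted p = 0.0374). The groups of both genes were separate, and for Tnfrsf17, dim in all arrays, 0 anti-CD40L and 2 control arrays were above the array median. Prdm1 and Irf4, transcription factors that establish the plasma cell state, did not pass, at -0.60 ± 0.17 (adjusted p = 0.0516) and -0.71 ± 0.21 (adjusted p = 0.0742). The 2 members of the 13 tested that rose were Edem1, which targets misfolded proteins for degradation (0.57 ± 0.15, adjusted p = 0.0401), and Fkbp11, a chaperone of the endoplasmic reticulum (0.52 ± 0.14, adjusted p = 0.0457). Both are made by other secretory cells too, and other probe sets gave -0.22 for Edem1 and -0.22 and -0.04 for Fkbp11. Xbp1, a regulator of secretory capacity, lay between 13.25 and 13.41 in anti-CD40L arrays and between 13.14 and 13.31 in controls.

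**Figure D1:**
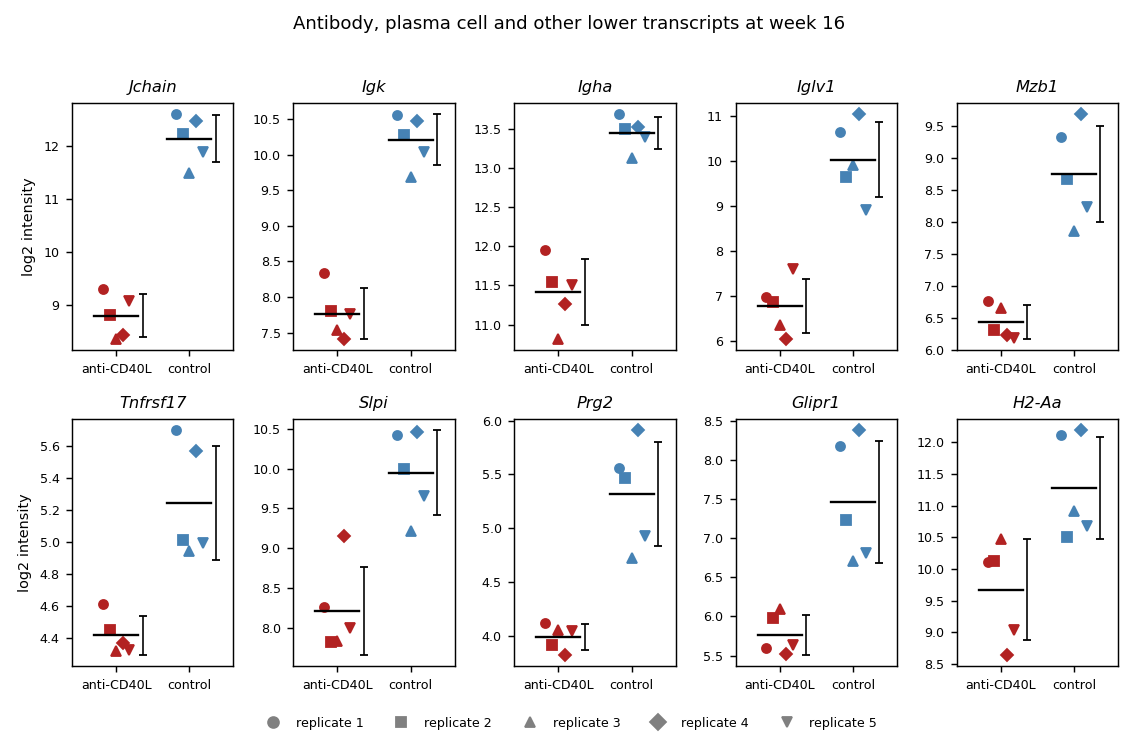
Log2 intensity of 10 transcripts in the 5 anti-CD40L arrays (red, left in each panel) and the 5 control arrays (blue, right) at week 16. Symbols give the replicate number, black lines the mean and bars the SD. For Jchain, Igk and Igha the groups are far apart, while for H2-Aa the gap to control replicates 2, 3 and 5 is small and control replicates 1 and 4 stand above them.

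The calls of Jchain, Igk, Igha, Igkv8-30, Igkv6-20, Igkv6-14, Mzb1 and Iglv1 held without any 1 of the 10 arrays. Tnfrsf17 lost its call without any of 7 arrays (highest adjusted p = 0.122, without control replicate 1), and Igll1 lost it without control replicate 4 (adjusted p = 0.0542). Edem1 lost it without any of 7 (0.148, without anti-CD40L replicate 5) and Fkbp11 without any of 6 (0.164, without anti-CD40L replicate 4). In the arrays with Amy1 above 10, 2 against 2, Jchain differed by -3.91 and Igha by -2.20, and in those below, 3 against 3, by -2.96 and -1.92. All 4 values passed (adjusted p = 0.00148 for Jchain and 0.0309 for Igha above 10, and 0.00336 and 0.0169 below 10).

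Other genes outside the antibody lists fell as well. Slpi, a secreted inhibitor of leukocyte proteases, measured 8.26, 7.83, 7.84, 9.16 and 8.003 in anti-CD40L arrays and 10.43, 9.99, 9.21, 10.46 and 9.66 in controls (-1.73 ± 0.27, adjusted p = 0.000523). The highest anti-CD40L array, replicate 4, was just below the lowest control, replicate 3. Glipr1, a secreted protein of the CAP family, measured 5.59, 5.98, 6.10, 5.51 and 5.64 in anti-CD40L arrays and 8.19, 7.23, 6.71, 8.38 and 6.81 in controls (-1.70 ± 0.29, adjusted p = 0.00123). A second Glipr1 probe set went the other way, by 0.29. Prg2, a leading protein of eosinophil granules, measured 4.12, 3.91, 4.05, 3.82 and 4.04 in anti-CD40L arrays and 5.56, 5.46, 4.73, 5.91 and 4.93 in controls (-1.33 ± 0.22, adjusted p = 0.00101). The Prg2 groups did not overlap, but 0 anti-CD40L and 2 control arrays were above the array median, so the size of the difference is not sure. All 3 kept their call without any 1 array (highest adjusted p = 0.00375 for Slpi, 0.00615 for Prg2 and 0.00824 for Glipr1). Without control replicates 1 and 4 together, Slpi still passed, and Glipr1 and Prg2 did not.

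MHC class II transcripts were lower, and here the control group was not uniform. H2-Aa, the alpha chain of the class II molecule I-A, measured 10.11, 10.12, 10.47, 8.64 and 9.03 in anti-CD40L arrays and 12.12, 10.50, 10.92, 12.19 and 10.67 in controls (-1.60 ± 0.38, adjusted p = 0.0299). H2-Eb1, a beta chain, measured 9.09, 9.004, 9.41, 7.82 and 8.06 in anti-CD40L arrays and 11.31, 9.42, 9.72, 11.44 and 9.55 in controls (-1.61 ± 0.42, adjusted p = 0.0408). The highest anti-CD40L array, replicate 3, was just below the lowest control in both genes. Cd74, the invariant chain that escorts class II molecules, measured 9.86, 9.88, 10.14, 8.55 and 8.87 in anti-CD40L arrays and 11.81, 10.33, 10.49, 11.91 and 10.46 in controls (-1.54 ± 0.38, adjusted p = 0.0357). All 9 tested members of the list were below 0, with a median of -1.12, and 3 fell (0.577% of all genes did). H2-Ab1, the partner chain of H2-Aa, did not pass (-1.47 ± 0.41, adjusted p = 0.0585).

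The class II difference was largest where control replicates 1 and 4 took part. In the arrays with Amy1 above 10, H2-Aa differed by -2.77 (adjusted p = 0.0258), and by -0.83 (adjusted p = 0.932) in those below it. The call of H2-Aa was lost without any of 4 single arrays (highest adjusted p = 0.111, without anti-CD40L replicate 5), that of Cd74 without any of 4 (0.128, same array) and that of H2-Eb1 without any of 6 (0.149, without control replicate 4). Promoter windows of H2-Aa and H2-Eb1 are shown because class II genes share an upstream element. RefSeq tables for GRCm38.p6 hold, for each gene start, 250 bases before and 50 after it, and 6 of the 9 tested class II genes had such a window. The Y box CTGATTGG, searched on both strands, contains the CCAAT box (CCAAT) in reverse. It was found in 3 of the 6 genes (H2-Aa, H2-Eb1 and H2-Oa), against 4.70% of the 27018 genes with a window. The match was not particular to class II genes, as 7 of 17 mitosis genes with a window (41.2%) held it. Among called genes, 4 of 48 lower (8.33%) and 19 of 142 higher genes (13.4%) did. Below are the 150 bases before the starts of H2-Aa and H2-Eb1, with the Y box in capitals.
H2-Aa: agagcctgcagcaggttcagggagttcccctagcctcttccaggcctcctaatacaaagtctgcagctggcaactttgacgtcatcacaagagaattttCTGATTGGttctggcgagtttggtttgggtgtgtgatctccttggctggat
H2-Eb1: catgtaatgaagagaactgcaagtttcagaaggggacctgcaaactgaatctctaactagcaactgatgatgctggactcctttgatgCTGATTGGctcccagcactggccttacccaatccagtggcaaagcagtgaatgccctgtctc
The H2-Aa window is chr17:34287824-34287973 on the minus strand and the H2-Eb1 window is chr17:34305717-34305866 on the plus strand. A match is a description of the letters and not a measured binding site.

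Most lymphocyte and interferon gamma transcripts had negative differences, and no member passed. Ms4a1, the B cell surface antigen CD20, measured 4.71, 4.66, 5.09, 4.50 and 4.65 in anti-CD40L arrays and 6.99, 4.69, 4.70, 7.64 and 4.45 in controls. Control replicates 1 and 4 stood far above, and the other 3 controls lay within the anti-CD40L range or below (-0.97 ± 0.59, adjusted p = 0.476). Cd3g, a T cell receptor component, showed the same order, at 3.93, 4.03, 4.28, 3.89 and 3.71 in anti-CD40L arrays and 6.58, 4.12, 4.18, 6.69 and 4.02 in controls (-1.15 ± 0.54, adjusted p = 0.314). Cxcl9, a chemokine induced by interferon gamma, measured 5.18, 4.75, 5.33, 4.62 and 4.32 in anti-CD40L arrays and 9.24, 5.13, 5.35, 9.36 and 5.19 in controls (-2.01 ± 0.84, adjusted p = 0.245). Control replicates 1 and 4 again stood far above the other 8 arrays. The lists of B cell (13 tested), T cell (12), cytotoxic lymphocyte (9), interferon gamma (11) and MHC class I (11) genes had medians of -0.52, -0.41, -0.76, -0.68 and -0.42, and limma called 0 of their members, against 4, 3, 6, 3 and 7 with an unadjusted p under 0.05 (14.7% of all genes). All members of these lists but 2 T cell genes were below 0.

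The list medians were smaller in size in the arrays of low Amy1. The B cell list had a median of -1.23 in the arrays with Amy1 above 10 and -0.02 in those below it, and the interferon gamma list -1.58 and -0.01. The values were -0.81 and -0.10 for T cells, -1.41 and -0.25 for cytotoxic lymphocytes and -0.71 and -0.16 for MHC class I, and all 9 cytotoxic genes were below 0 in the arrays of low Amy1 too. The mean level of the B cell list was 5.56, 5.51, 5.65, 5.47 and 5.44 in anti-CD40L arrays and 6.59, 5.57, 5.67, 6.85 and 5.58 in controls. Anti-CD40L replicates 2 and 4 also had Amy1 above 10 and were not among the high arrays. The part of Amy1-rich tissue in the levels of control replicates 1 and 4 was not tested. Type I interferon genes differed little (13 tested, 0 called in limma and 0 at an unadjusted p under 0.05, median 0.08).

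Macrophage and dendritic cell genes were below 0 for 17 of 18 tested members, with a median of -0.47 and 0 called in limma (9 at an unadjusted p under 0.05, which 14.7% of all genes had). In 6 of them all anti-CD40L arrays were below all controls, as in 3.02% of all genes. Lyz2, the lysozyme of myeloid cells, lay between 9.78 and 10.34 in anti-CD40L arrays and between 10.50 and 11.70 in controls (-0.89 ± 0.33, adjusted p = 0.181). Aif1, a cytoplasmic protein of macrophages, lay between 5.63 and 6.06 in anti-CD40L arrays and between 6.12 and 7.84 in controls (-0.95 ± 0.36, adjusted p = 0.178). Of 11 tested complement genes 10 were below 0, with a median of -0.35, 0 called in limma and 3 at an unadjusted p under 0.05. Among them C1s1, a protease of the classical pathway, gave -0.97 ± 0.34, adjusted p = 0.148.

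Some cell division transcripts rose in anti-CD40L glands. Cdk1, the kinase that starts mitosis, measured 8.27, 8.85, 8.05, 6.96 and 10.50 in anti-CD40L arrays and 7.09, 6.25, 6.75, 6.78 and 6.12 in controls. Replicate 5 was far above the rest and replicate 4 lay inside the control range, so the groups overlapped (1.93 ± 0.39, adjusted p = 0.00816). Birc5, the chromosomal passenger survivin, measured 6.79, 7.45, 6.29, 4.65 and 9.29 in anti-CD40L arrays and 4.93, 4.44, 4.95, 5.04 and 4.71 in controls (2.08 ± 0.50, adjusted p = 0.0299). Its replicate 4 was lower than 4 of the 5 controls. Aurka, a kinase of the spindle poles, was the only member of the list whose groups did not overlap, at 6.65, 6.75, 6.21, 5.66 and 8.64 in anti-CD40L arrays and 5.54, 5.03, 5.27, 5.26 and 5.40 in controls (1.48 ± 0.32, adjusted p = 0.0135). The other members that rose were Pbk, a mitotic kinase (1.96 ± 0.49, adjusted p = 0.0371), Hmmr, which organises spindle microtubules (1.44 ± 0.36, adjusted p = 0.0374), and Ccna2, a cyclin of S phase and mitosis (1.38 ± 0.35, adjusted p = 0.0374). Of 21 tested mitosis genes 6 rose (1.31% of all genes did) and 0 fell, 19 were above 0 and the median was 1.21, the highest of all lists. Without 1 array, between 2 and 15 of them rose. Ect2, which activates RhoA in cytokinesis, rose too (1.60 ± 0.40, adjusted p = 0.0374). All 5 controls of Birc5 and of Ect2 were below the array median, so the sizes of these 2 differences are not sure. Ect2 had 4 anti-CD40L arrays and 3 arrays of other weeks above it. It thus passed the filter only with the help of the anti-CD40L arrays.

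The range among anti-CD40L arrays was wide, and the standard errors above, pooled over all groups, do not measure it. The mean level of the mitosis list was 7.18, 7.41, 6.98, 5.92 and 8.76 in anti-CD40L replicates 1 to 5 and 6.39, 5.98, 6.16, 6.34 and 5.97 in control replicates 1 to 5. Replicate 5 was far above all arrays and replicate 4 was the lowest of the 10, while the controls lay close together. The SD of this level was 1.02 in anti-CD40L arrays and 0.194 in controls. Mki67, the proliferation antigen Ki-67, did not pass, at 8.05, 8.52, 7.83, 5.89 and 10.18 in anti-CD40L arrays and 7.27, 6.09, 6.31, 6.75 and 5.90 in controls (1.63 ± 0.44, adjusted p = 0.0503). In the arrays with Amy1 below 10, which leave out anti-CD40L replicates 2 and 4, 11 of the 21 members rose and the median was 1.94. Among all 12999 tested genes 31 rose there. These arrays keep replicate 5, the highest for mitosis genes, and leave out replicate 4, the lowest. In the arrays with Amy1 above 10, 2 against 2, no member passed and the median was 0.26, and 7 of all tested genes rose. Cdk1 and Aurka kept their call without any 1 array, whereas Birc5 lost it without any of 6 (highest adjusted p = 0.110), Pbk without 8 (0.141), Ccna2 without 8 (0.128), Hmmr without 8 (0.128) and Ect2 without 7 (0.129). In each of these genes the highest value came without anti-CD40L replicate 5.

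Promoters of cell cycle genes are known for pairing a CCAAT box with a CHR element, TTTGAA. Of the 21 tested mitosis genes 17 had a RefSeq window, and 14 of the 17 (82.4%) held both motifs on either strand, against 7.97% of all genes with a window. The share among all genes called higher was 16 of 142 (11.3%). The 150 bases before the start are shown for Cdk1, for Ect2 and for the mitotic kinesin Kif22, which also rose and was chosen after its value was seen (1.21 ± 0.27, adjusted p = 0.0168; 0.0573 without anti-CD40L replicate 5). They were picked because they hold both motifs. Capitals mark both motifs.
Cdk1: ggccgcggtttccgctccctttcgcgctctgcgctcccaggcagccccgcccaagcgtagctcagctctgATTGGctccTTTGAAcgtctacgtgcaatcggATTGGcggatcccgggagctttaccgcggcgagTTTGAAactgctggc
Ect2: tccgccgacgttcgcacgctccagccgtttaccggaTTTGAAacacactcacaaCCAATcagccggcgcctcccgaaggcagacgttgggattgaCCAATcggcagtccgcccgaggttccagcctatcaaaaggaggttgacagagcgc
Kif22: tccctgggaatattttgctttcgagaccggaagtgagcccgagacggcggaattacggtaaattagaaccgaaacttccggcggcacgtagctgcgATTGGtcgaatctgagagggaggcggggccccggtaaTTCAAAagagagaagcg
These windows are chr10:69352913-69353062, chr3:27153879-27154028 and chr7:127042421-127042570, all on the minus strand. The mitosis genes without a CHR match in their windows included Birc5, which held neither motif. No binding was measured here.

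A few DNA replication genes rose. Prim1, the primase that starts DNA strands, measured 7.39, 8.15, 7.75, 7.95 and 9.41 in anti-CD40L arrays and 7.05, 6.77, 7.07, 7.23 and 7.27 in controls. Every anti-CD40L array was above every control, and replicate 5 was highest (1.05 ± 0.25, adjusted p = 0.0282). Cdt1, a licensing factor, measured 7.61, 8.65, 8.06, 7.89 and 9.64 in anti-CD40L arrays and 7.61, 7.24, 7.37, 7.74 and 7.39 in controls (0.90 ± 0.24, adjusted p = 0.0457). For Mcm2, a subunit of the replicative helicase, the anti-CD40L arrays gave 7.12, 7.63, 7.19, 7.31 and 8.24 and the controls 7.17, 6.81, 7.07, 6.82 and 6.82 (0.56 ± 0.14, adjusted p = 0.0375). The Cdt1 and Mcm2 groups overlapped through anti-CD40L replicate 1. Of 20 tested members 3 rose (1.31% of all genes did), 18 were above 0 and the median was 0.65. Rrm2, a ribonucleotide reductase subunit, did not pass (1.49 ± 0.41, adjusted p = 0.0519). Without anti-CD40L replicate 5 none of the 3 passed (adjusted p = 0.0972 for Prim1, 0.158 for Cdt1 and 0.129 for Mcm2). The cell cycle inhibitor Cdkn1a rose as well (0.49 ± 0.11, adjusted p = 0.0199), the 1 of 13 tested quiescence genes that did. Its call was lost without any of 4 arrays (highest adjusted p = 0.0969, without anti-CD40L replicate 5).

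A list of genes that supply nucleotides was assembled after values were seen. Of 32 tested nucleotide and polyamine synthesis genes 6 rose (1.31% of all genes did) and 0 fell, with a median of 0.19. In 10 of them all anti-CD40L arrays were above all controls, as in 6.03% of all genes. Nme1, a nucleoside diphosphate kinase, measured 10.83, 10.86, 10.90, 11.51 and 11.39 in anti-CD40L arrays and 10.23, 10.47, 10.67, 10.35 and 10.45 in controls (0.66 ± 0.13, adjusted p = 0.00466). Odc1, the ornithine decarboxylase that starts polyamine synthesis, measured 11.28, 11.27, 11.19, 11.56 and 11.45 in anti-CD40L arrays and 10.84, 10.80, 10.91, 10.57 and 10.99 in controls (0.53 ± 0.10, adjusted p = 0.00351). In both genes the groups were separate and replicates 4 and 5 were highest, so replicate 4 did not stand low here as it did for mitosis genes. The others were Uck2, a uridine and cytidine kinase (0.67 ± 0.13, adjusted p = 0.00623), Dck, a deoxycytidine kinase (0.99 ± 0.26, adjusted p = 0.0414), Dut, which removes dUTP (0.70 ± 0.16, adjusted p = 0.0233), and Cad, which starts pyrimidine synthesis (0.65 ± 0.17, adjusted p = 0.0455). Nme1, Odc1 and Uck2 kept their call without any 1 array. The calls of Dck, Dut and Cad were lost without any of 8, 3 and 9 arrays (highest adjusted p = 0.170, 0.0973 and 0.161, each without anti-CD40L replicate 5).

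Cholesterol synthesis genes were higher in a narrow range. Cyp51, which removes a methyl group from lanosterol, measured 7.83, 7.61, 7.47, 8.11 and 8.88 in anti-CD40L arrays and 6.53, 6.65, 6.73, 6.15 and 7.07 in controls (1.35 ± 0.27, adjusted p = 0.00768). Idi1, an isomerase of the early pathway, measured 8.04, 8.37, 8.10, 8.38 and 9.22 in anti-CD40L arrays and 7.77, 7.25, 7.70, 6.95 and 7.69 in controls (0.95 ± 0.25, adjusted p = 0.0457). The groups of both genes were separate. Of 13 tested members 2 rose (1.31% of all genes did), 12 were above 0 and the median was 0.62. In 7 of them all anti-CD40L arrays were above all controls, as in 6.03% of all genes. Insig1 and Msmo1, a sterol sensor and a demethylase, did not pass (0.84 ± 0.25, adjusted p = 0.0758 and 0.74 ± 0.22, adjusted p = 0.0765). The mean level of the list was 8.55, 8.89, 8.69, 8.86 and 9.28 in anti-CD40L arrays and 8.36, 8.18, 8.30, 7.99 and 8.38 in controls, with no overlap. Its median was 0.64 in the arrays with Amy1 above 10 and 0.60 in those below. Cyp51 kept its call without any 1 array, and Idi1 lost it without any of 8 (highest adjusted p = 0.189, without anti-CD40L replicate 5). Fatty acid and triglyceride genes differed little (14 tested, 0 called in limma, 2 at an unadjusted p under 0.05, median 0.04).

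**Figure D2:**
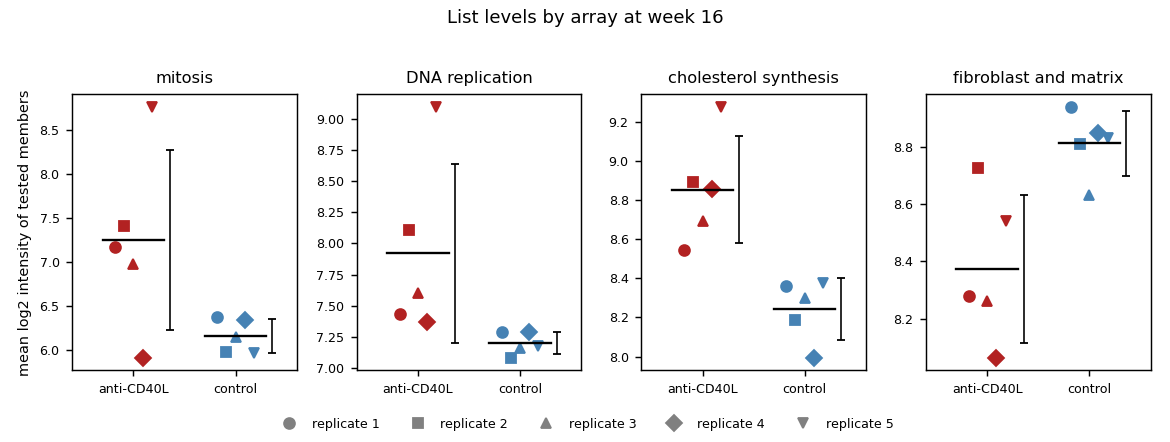
Mean log2 intensity of the tested members of 4 gene lists in the 5 anti-CD40L arrays (red, left) and the 5 control arrays (blue, right). Symbols give the replicate number, black lines the mean and bars the SD. For mitosis, anti-CD40L replicate 4 lies at or below the control level and replicate 5 far above it, while the cholesterol synthesis levels do not overlap.

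Some genes that make sugar donors and mucin-type glycans rose, in another list assembled after values were seen. Of 44 tested sugar nucleotide and O-glycan genes 5 rose (1.31% of all genes did) and 0 fell, with a median of 0.26. In this list 16 genes had all anti-CD40L arrays above all controls (6.03% of all genes did) and 2 had them below (3.02% did). The lowest member, St6galnac1, a sialyltransferase, did not pass (-1.08 ± 0.29, adjusted p = 0.0503). Slc35a1, which carries CMP-sialic acid into the Golgi, measured 11.58, 11.44, 11.31, 11.68 and 11.69 in anti-CD40L arrays and 10.74, 10.76, 10.91, 10.55 and 11.03 in controls (0.74 ± 0.15, adjusted p = 0.00696). Gmds, the first enzyme of GDP-fucose synthesis, measured 9.89, 9.70, 9.67, 10.32 and 10.37 in anti-CD40L arrays and 9.12, 9.01, 9.31, 9.15 and 9.54 in controls (0.76 ± 0.15, adjusted p = 0.00716). The groups of both were separate. The other 3 were Galnt6, which attaches the first sugar of O-glycans (1.003 ± 0.26, adjusted p = 0.0412), and the glycosyltransferases B3gnt3 (0.69 ± 0.19, adjusted p = 0.0494) and B4galt6 (0.50 ± 0.12, adjusted p = 0.0356). Galnt6 and B4galt6 lost their call without any of 8 arrays and B3gnt3 without any of 9 (highest adjusted p = 0.159, 0.113 and 0.175). For B3gnt3, 4 anti-CD40L arrays, 0 controls and 2 arrays of other weeks were above the array median. B3gnt3 thus passed the filter only with the anti-CD40L arrays, and the size of its difference is not sure. The count of 5 includes B3gnt3 and is not independent of the filter. Ugt8a, which makes galactosylceramide, had the clearest rise among the glycosyltransferases (1.57 ± 0.23, adjusted p = 0.000261), at 7.38, 7.38, 7.48, 8.07 and 8.23 in anti-CD40L arrays and 6.44, 5.87, 6.42, 5.55 and 6.41 in controls.

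Of 21 tested genes of the unfolded protein response 1 fell, 0 rose and the median was 0.03. The member that fell was Dnajb9, a co-chaperone of BiP that measured 10.92, 10.22, 10.15, 10.55 and 10.49 in anti-CD40L arrays and 11.33, 11.46, 11.18, 11.01 and 11.22 in controls (-0.77 ± 0.14, adjusted p = 0.00361). Its highest anti-CD40L array, replicate 1, was just below the lowest control. Herpud1, a component of the degradation machinery, did not pass (-0.60 ± 0.19, adjusted p = 0.0930).

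In the circadian oscillator, Arntl activates its own repressors. The labels do not give the hour at which the glands were taken. Arntl, the activator BMAL1, measured 8.08, 6.83, 7.42, 8.33 and 8.17 in anti-CD40L arrays and 5.24, 5.50, 5.41, 5.96 and 6.33 in controls. The lowest anti-CD40L array, replicate 2, was above the highest control, replicate 5 (2.08 ± 0.31, adjusted p = 0.000401). Dbp, an output factor under direct Arntl control, measured 7.21, 9.34, 8.44, 5.96 and 6.16 in anti-CD40L arrays and 11.25, 11.04, 10.60, 9.94 and 9.38 in controls (-3.02 ± 0.61, adjusted p = 0.00772). Its anti-CD40L arrays reached from 5.96 in replicate 4 to 9.34 in replicate 2, just below the lowest control. A second Dbp probe set gave the same difference, -3.02. Tef, a relative of Dbp, measured 8.80, 9.33, 9.003, 8.63 and 8.56 in anti-CD40L arrays and 10.42, 10.45, 10.01, 9.59 and 9.42 in controls (-1.11 ± 0.22, adjusted p = 0.00768). Nr1d2, the repressor REV-ERB beta, measured 10.36, 10.70, 10.36, 9.88 and 9.84 in anti-CD40L arrays and 11.29, 11.28, 11.02, 10.89 and 10.997 in controls (-0.87 ± 0.14, adjusted p = 0.00109). Per3, a period protein, overlapped between the groups, at 6.09, 6.72, 6.44, 6.13 and 6.03 in anti-CD40L arrays and 8.21, 8.08, 7.22, 6.86 and 6.69 in controls (-1.13 ± 0.30, adjusted p = 0.0476).

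The ranking of the arrays was alike within each group for the output genes. Anti-CD40L replicates 4 and 5 were the lowest of their group for Dbp, Tef and Nr1d2, and replicate 2 the highest. Control replicates 1 and 2 were the highest of theirs. Of 15 tested repressor and output genes 4 fell (0.577% of all genes did) and 0 rose. All 15 were below 0 with a median of -0.62, and 6 had all anti-CD40L arrays below all controls (3.02% of all genes did). Among these were Usp2, a deubiquitinase of clock proteins (-1.15 ± 0.54, adjusted p = 0.322), and Bhlhe40, a repressor (-0.71 ± 0.23, adjusted p = 0.104), which did not pass. Of 8 tested activator genes 1 rose and the median was 0.47. Nfil3, a repressor of output genes that peaks with Arntl, did not pass (0.96 ± 0.28, adjusted p = 0.0755). Arntl, Dbp, Tef and Nr1d2 kept their call without any 1 array, and Per3 lost it without any of 8 (highest adjusted p = 0.161, without control replicate 1). In the arrays with Amy1 above and below 10 the differences were 1.98 and 2.14 for Arntl and -2.95 and -3.07 for Dbp.

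**Figure D3:**
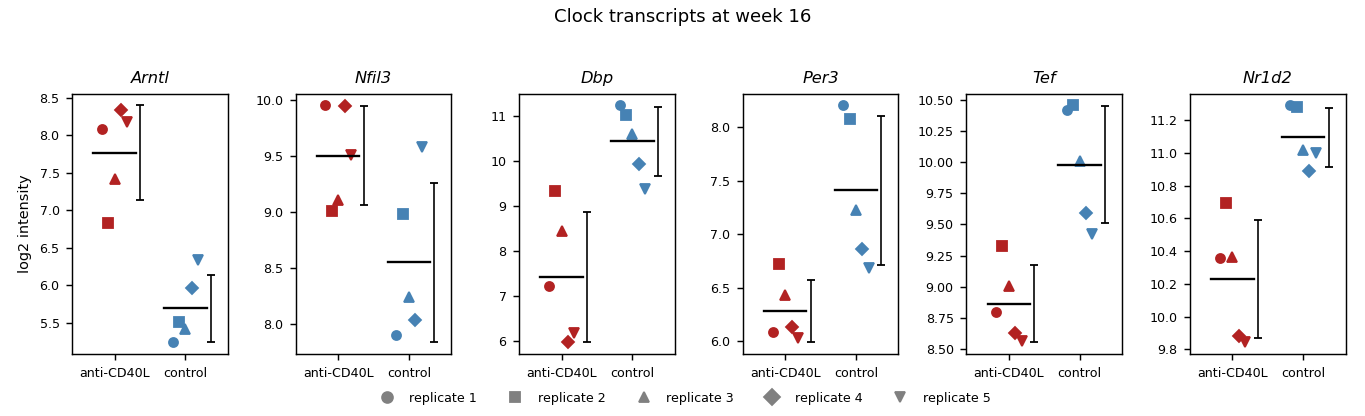
Log2 intensity of 6 clock transcripts in the 5 anti-CD40L arrays (red, left in each panel) and the 5 control arrays (blue, right) at week 16. Symbols give the replicate number, black lines the mean and bars the SD. Arntl is higher in every anti-CD40L array than in any control, Dbp, Tef and Nr1d2 are lower in every one, and Nfil3 and Per3 overlap.

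Clock output genes are bound through E-boxes (CACGTG) and D-boxes (TTATGTAA). Of the 15 tested repressor and output genes 12 had a RefSeq window, and an E-box was found in 4 of them (Bhlhe41, Ciart, Per1 and Tef; 33.3%, against 8.09% of all genes). A D-box was found in 1, Per3, against 1.11%. Both strands were searched. A stretch of 150 bases upstream of the start is shown for Tef and for Per3 because it holds these motifs, given in capitals. The Tef stretch runs up to the start, whereas the Per3 stretch lies further upstream and ends before reaching it.
Tef: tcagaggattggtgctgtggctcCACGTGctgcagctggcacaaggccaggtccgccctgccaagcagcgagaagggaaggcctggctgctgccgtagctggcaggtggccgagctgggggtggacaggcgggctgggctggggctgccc
Per3: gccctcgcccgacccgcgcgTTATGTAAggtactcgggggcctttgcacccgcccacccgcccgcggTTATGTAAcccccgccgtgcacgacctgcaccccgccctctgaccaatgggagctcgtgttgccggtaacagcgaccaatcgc
They are chr15:81802523-81802672 on the plus strand and chr4:151044741-151044890 on the minus strand. The windows of Dbp and Nr1d2 held neither motif.

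Some connective tissue transcripts fell. Lum, the collagen-binding proteoglycan lumican, measured 9.25, 10.09, 9.57, 8.08 and 9.73 in anti-CD40L arrays and 10.55, 10.52, 10.49, 10.50 and 10.20 in controls. The controls were tightly grouped, and every anti-CD40L array was below them, with replicate 4 lowest and replicate 2 highest (-1.11 ± 0.27, adjusted p = 0.0344). Col6a3, a chain of collagen VI, measured 8.04, 8.75, 8.23, 7.80 and 8.37 in anti-CD40L arrays and 8.996, 8.93, 8.64, 8.81 and 8.94 in controls, and its groups overlapped through anti-CD40L replicate 2 (-0.63 ± 0.16, adjusted p = 0.0414). Of 22 tested fibroblast and matrix genes 2 fell (0.577% of all genes did), 0 rose, 20 were below 0 and the median was -0.48. Col1a2, a chain of collagen I, did not pass (-0.85 ± 0.24, adjusted p = 0.0618), and Timp1, an inhibitor of matrix proteases, was the highest member (0.88 ± 0.25, adjusted p = 0.0598).

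A further list, of small leucine-rich proteoglycans, fibulins and other proteins secreted by fibroblasts, was assembled after values were seen, so its count is a description. Of 27 tested members 12 fell (0.577% of all genes did) and 0 rose, with a median of -0.53, and 11 had all anti-CD40L arrays below all controls (3.02% of all genes did). Without 1 array, between 2 and 13 of them fell. Ogn, the proteoglycan osteoglycin, measured 7.31, 8.29, 7.41, 6.09 and 7.38 in anti-CD40L arrays and 8.52, 8.64, 8.43, 8.70 and 8.48 in controls (-1.26 ± 0.31, adjusted p = 0.0363). Cpxm1, a secreted carboxypeptidase-like protein, measured 5.37, 5.76, 5.51, 4.75 and 4.95 in anti-CD40L arrays and 6.44, 6.82, 6.36, 6.18 and 6.44 in controls (-1.18 ± 0.22, adjusted p = 0.00350). Smoc2, a calcium-binding matricellular protein, measured 7.61, 7.90, 7.67, 6.85 and 7.29 in anti-CD40L arrays and 8.13, 8.41, 8.34, 7.96 and 8.30 in controls (-0.76 ± 0.15, adjusted p = 0.00578). The groups did not overlap in any of the 3, and replicate 4 was the lowest of each. The other 8, Fmod, Efemp1, Fbln7, Col14a1, Ccdc80, Igfbp5, Htra1 and Ctsk, fell by 0.63 to 1.02 on the log2 scale. Cpxm1 and Smoc2 kept their call without any 1 array, and each of these 8 lost it without any of 5 to 9 arrays (highest adjusted p = 0.0786 for Htra1 to 0.170 for Fbln7, both without anti-CD40L replicate 4). Lum lost it without any of 6 (highest adjusted p = 0.103), Ogn without 7 (0.121) and Col6a3 without 9 (0.141), each highest without anti-CD40L replicate 4. The mean level of the list was 7.62, 7.92, 7.62, 7.33 and 7.60 in anti-CD40L arrays and 8.13, 8.18, 8.01, 8.07 and 8.09 in controls. The median was -0.59 in the arrays with Amy1 above 10 and -0.50 in those below.

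Cxcl12, a chemokine of stromal cells that retains plasma cells and B cells, measured 8.34, 8.88, 8.47, 8.40 and 8.49 in anti-CD40L arrays and 9.24, 9.12, 9.01, 9.29 and 9.07 in controls (-0.63 ± 0.17, adjusted p = 0.0455). Another Cxcl12 probe set moved the opposite way, by 0.65. The call was lost without any of 9 arrays (highest adjusted p = 0.129, without control replicate 4). It was the 1 called gene among 8 lymphoid chemokine and stroma genes, and Cxcl13, the chemokine of B cell follicles, did not differ beyond its spread (6.82 to 8.74 in anti-CD40L arrays, 6.58 to 8.56 in controls, difference 0.13 ± 0.38).

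Several genes rose singly, with few or no other called members in their lists. Gpx2, a glutathione peroxidase of epithelia, measured 9.77, 9.28, 8.88, 10.49 and 11.05 in anti-CD40L arrays and 7.84, 7.66, 8.11, 7.95 and 8.13 in controls (1.96 ± 0.35, adjusted p = 0.00240). It was the 1 called member of 14 tested glutathione and NRF2 genes. Myot, the sarcomere protein myotilin, measured 7.46, 6.32, 5.37, 7.63 and 7.36 in anti-CD40L arrays and 4.22, 5.17, 4.000, 4.06 and 4.96 in controls (2.35 ± 0.36, adjusted p = 0.000401). Among defining muscle transcripts, Ckm, the muscle creatine kinase, lay between 5.88 and 6.25 in anti-CD40L arrays and between 5.87 and 6.28 in controls, and Myot was the 1 called gene of 10 tested muscle genes. Ttr, a carrier of thyroid hormone and retinol-binding protein, measured 9.75, 9.89, 8.63, 11.27 and 9.94 in anti-CD40L arrays and 6.98, 7.92, 7.48, 8.05 and 7.63 in controls (2.29 ± 0.57, adjusted p = 0.0356). Its other 3 probe sets differed by 1.12, 2.58 and 2.65. Folr1, a folate receptor, measured 10.36, 10.42, 10.55, 10.90 and 10.79 in anti-CD40L arrays and 9.42, 9.68, 9.81, 9.81 and 9.70 in controls (0.92 ± 0.14, adjusted p = 0.000449). Folh1, a folate hydrolase, measured 5.56, 6.0, 5.73, 8.03 and 7.22 in anti-CD40L arrays and 4.53, 4.94, 4.91, 4.50 and 5.33 in controls (1.67 ± 0.34, adjusted p = 0.00866). For all 5 genes the groups were separate, and all but Gpx2 were highest in anti-CD40L replicate 4. All 5 controls of Myot and Folh1 were below the array median, so the sizes of these 2 differences are not sure. Folh1 passed the filter only through the 5 anti-CD40L arrays, with 0 arrays of other weeks above the median. Myot passed it through 4 anti-CD40L arrays and 1 array of another week. The calls of these 2 genes are therefore not independent of the filter.

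The remaining large rises were of Lypd6b, a Ly6 family protein, at 8.08, 7.34, 7.37, 8.18 and 8.76 in anti-CD40L arrays and 5.82, 5.45, 6.22, 5.83 and 6.45 in controls (1.99 ± 0.39, adjusted p = 0.00718), and of the transcript D17H6S56E-5 (1.89 ± 0.38, adjusted p = 0.00755). Tjp3, a tight junction scaffold, rose (0.65 ± 0.17, adjusted p = 0.0455), the 1 of 14 tested junction genes, as did Etv5, a transcription factor of branching epithelium (1.08 ± 0.25, adjusted p = 0.0221), the 1 of 15 basal and progenitor genes. Gpx2, Myot, Folr1, Folh1, Ugt8a and Lypd6b kept their call without any 1 array. Ttr and Tjp3 lost it without any of 8 (highest adjusted p = 0.113 and 0.146, without anti-CD40L replicate 4) and Etv5 without any of 5 (0.106, without replicate 5).

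S100a8 and S100a9 form calprotectin, a calcium-binding complex of neutrophils that epithelia can also make. S100a8 measured 6.09, 4.46, 5.73, 6.36 and 6.91 in anti-CD40L arrays and 4.48, 4.33, 4.24, 4.87 and 4.76 in controls (1.37 ± 0.34, adjusted p = 0.0357). Anti-CD40L replicate 2 lay within the controls and the other 4 above them, and the controls were all below the array median. With 4 arrays of other weeks above that median, S100a8 passed the filter only with the anti-CD40L arrays. S100a9 gave 6.02, 4.86, 5.82, 6.30 and 6.71 in anti-CD40L arrays and 4.72, 4.64, 4.69, 5.24 and 4.88 in controls (1.11 ± 0.29, adjusted p = 0.0431), with the same array lowest. Its controls were also all below the array median, so the sizes of both differences are not sure. Lcn2, which neutrophils and inflamed epithelia secrete, did not pass (1.43 ± 0.50, adjusted p = 0.145). With Prg2, 2 of 9 tested neutrophil and eosinophil genes rose (1.31% of all genes did) and 1 fell (0.577% did). The list median was 0.09. S100a8 is 1 of the 2 that rose, so this count is not independent of the filter. S100a8 and S100a9 lost their call without any of 7 and 9 arrays (highest adjusted p = 0.141 and 0.170, without anti-CD40L replicate 5).

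Lists of secretory and duct genes had few called members. With 1.88% of all genes called, counts of 0 or 1 in such short lists do not set them apart. Gpx2, Tjp3 and Etv5, which rose, were counted in other lists. Folr1 was the 1 called gene of 16 tested acinar genes (median 0.0022), and limma called 0 of 20 duct genes (-0.07), 13 myoepithelial and smooth muscle genes (-0.23), 13 endothelial genes (0.04) and 17 mitochondrial genes (0.04), medians in brackets. At an unadjusted p under 0.05 these 4 lists had 0, 2, 0 and 2 genes. Granular duct products were below 0 for all 10 tested genes with 0 called in limma and 5 at an unadjusted p under 0.05 (median -0.29). Klk1b27, a kallikrein of granular ducts, had the largest difference among them (-0.64 ± 0.18, adjusted p = 0.0640). Adipocyte genes varied with single arrays, and Adipoq, the hormone adiponectin, reached 9.78 in control replicate 2 (-1.23 ± 1.15, adjusted p = 0.706). Of 7 genes encoding autoantigens of Sjogren syndrome, 0 were called in limma and 0 had an unadjusted p under 0.05 (median 0.02).

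**Figure D4:**
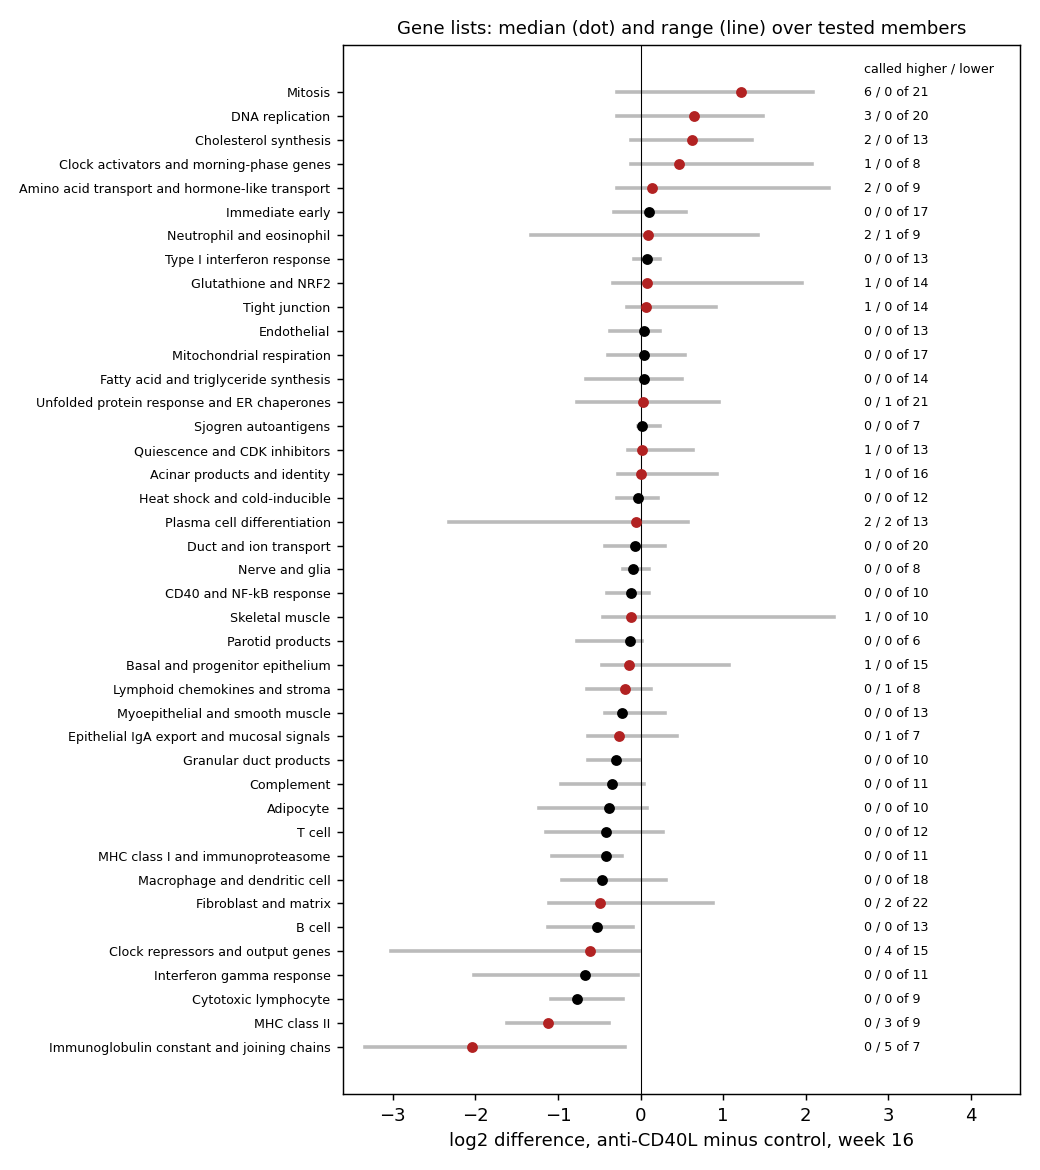
Log2 difference (anti-CD40L minus control, week 16) for the 41 gene lists with at least 5 tested members, leaving out the 4 further lists. Dots are medians, red where a member was called, lines span the lowest to the highest member, and the numbers give members called higher and lower of those tested. Mitosis has the highest median (1.21) and immunoglobulin constant and joining chains the lowest (-2.03).

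The treatment difference was then compared between weeks. Week 8 had 9 called genes (0.0692%), 0 higher and 9 lower, and week 24 had 1229 (9.45%). Of the 245 genes called at week 16, 4 were called in the same direction at week 8. At week 24, 29 were called in the same direction, which is 11.8% of the week 16 calls and 2.36% of the week 24 calls, and 5 in the opposite one. The test of the difference itself called 19 genes against week 8 (0.146%) and 151 against week 24 (1.16%). Among the 245, these numbers were 12 and 50. The calls against week 8 were fragile. Limma called 0 genes without control replicate 2 or without anti-CD40L replicate 5 of week 16, and 2 with a replicate block. RNA quality and Amy1 were tested between groups at week 16 only. The gap between 3' and 5' probe sets separated the groups at week 24 (0.2865 to 0.6095 in controls, 0.1645 to 0.2485 in anti-CD40L arrays). At week 8 it was 0.359 to 0.8585 and 0.2575 to 0.516. Amy1 at week 8 was 6.575 to 13.605 in controls and 13.184 to 13.695 in anti-CD40L arrays. The part of these measures in the effect differences between weeks was not tested.

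Igha and Jchain were below control at all 3 weeks. The Igha difference was -1.69 at week 8, -2.03 at week 16 and -0.51 at week 24, and the week 16 effect minus the week 24 effect was -1.52 ± 0.38, adjusted p = 0.0408. This call was lost without any of 7 arrays of week 16 (highest adjusted p = 0.0799, without control replicate 1). For Jchain the 3 values were -2.56, -3.34 and -1.80, and no difference between weeks passed (adjusted p = 0.492 against week 8 and 0.100 against week 24). Ighg3 went the other way: it differed by -0.19 at week 16 and -2.60 at week 24, an effect difference of 2.41 ± 0.58, adjusted p = 0.0339, lost without any of 6 arrays (highest adjusted p = 0.0708, without anti-CD40L replicate 5). Slpi, Prg2 and Glipr1 were lower at week 24 too, by -2.08, -1.83 and -1.84, against -0.10, 0.01 and -0.72 at week 8, and the effects at weeks 16 and 24 gave no called difference (adjusted p = 0.689, 0.412 and 0.894).

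The effect on connective tissue genes differed from that at week 24. Cpxm1 had an effect of 0.58 at week 8, -1.18 at week 16 and 0.69 at week 24, and the week 16 effect differed from both (-1.76 ± 0.31, adjusted p = 0.0231 against week 8, -1.87 ± 0.31, adjusted p = 0.00345 against week 24). The call against week 8 was lost without any of 3 arrays (up to adjusted p = 0.0794, when anti-CD40L replicate 5 was left out). The call against week 24 was kept without any 1 array of week 16. Arrays of weeks 8 and 24 were not left out in any such fit. Igfbp5, which binds insulin-like growth factors, had 0.52, -1.02 and 0.94 (-1.96 ± 0.38, adjusted p = 0.0127 against week 24). The effect differences from week 24 of the collagens Col1a2 and Col6a3 were -1.70 ± 0.34, adjusted p = 0.0164 and -1.06 ± 0.23, adjusted p = 0.0218, and that of Col6a3 was lost without anti-CD40L replicate 4 (adjusted p = 0.0529). In the fibroblast and matrix list the median was 0.20 at week 8, -0.48 at week 16 and 0.39 at week 24. A called effect difference from week 24 was found for 6 of 22 members (1.16% of all genes had one).

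The effect on several genes that rose at week 16 differed as well. Ttr had an effect of 0.06 at week 8, 2.29 at week 16 and -0.95 at week 24 (3.23 ± 0.80, adjusted p = 0.0408 against week 24), and Folh1 had -0.28, 1.67 and -0.28 (1.94 ± 0.48, adjusted p = 0.0420). These calls were lost without any of 8 and 7 arrays (highest adjusted p = 0.0907 for Ttr, without anti-CD40L replicate 4, and 0.0993 for Folh1, without replicate 5). Folh1 passed the filter for dim probe sets only through the anti-CD40L arrays of week 16. Ugt8a differed from both other weeks (1.49 ± 0.32, adjusted p = 0.0491 against week 8 and 1.78 ± 0.32, adjusted p = 0.00829 against week 24). Its call against week 8 was lost without any of 8 arrays and with a replicate block (up to adjusted p = 0.117, when anti-CD40L replicate 5 was left out, and 0.0778 with the block). Its call against week 24 was kept with the block and without any 1 array of week 16. S100a8 and S100a9 had week 24 effects of -0.79 and -0.74, below those of week 16 by called amounts (2.16 ± 0.48, adjusted p = 0.0260 and 1.85 ± 0.41, adjusted p = 0.0235), both lost without any of 3 arrays (highest adjusted p = 0.0587 and 0.0573, without anti-CD40L replicate 5). Nostrin, which traffics nitric oxide synthase, and Nme1 were chosen after their values were seen (1.04 ± 0.17, adjusted p = 0.00345 and 0.95 ± 0.18, adjusted p = 0.0102 against week 24). Dnajb9 was -0.77 at week 16 and 0.49 at week 24 (-1.26 ± 0.20, adjusted p = 0.00345). For Arntl the effects were -0.12, 2.08 and 1.34, a called difference from week 8 (2.20 ± 0.44, adjusted p = 0.0430) and no called one from week 24 (adjusted p = 0.397). The call of Arntl against week 8 was lost without any of 6 arrays and with a replicate block (up to adjusted p = 0.0913, when anti-CD40L replicate 5 was left out, and 0.0722 with the block). Cdk1 had -0.21, 1.93 and 0.40, and its effect differences did not pass (adjusted p = 0.0883 and 0.154).

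**Figure D5:**
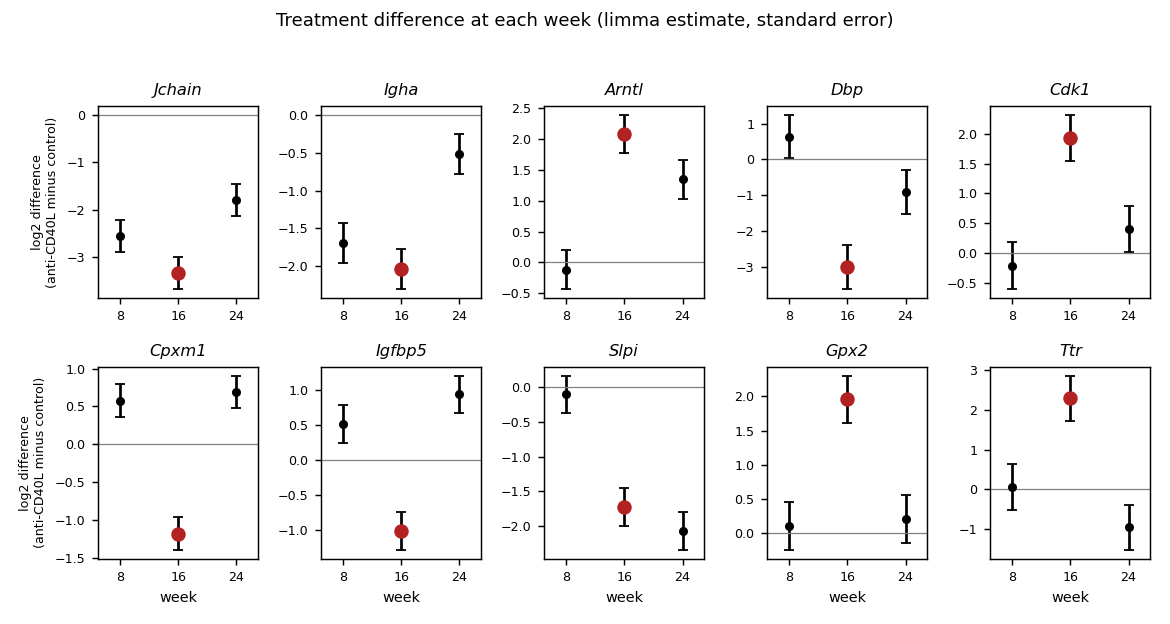
Log2 treatment difference (anti-CD40L minus control) at weeks 8, 16 and 24 for 10 genes, with standard errors from the model of all 30 arrays. The week 16 value is red and the line marks 0. Cpxm1 and Igfbp5 are below 0 at week 16 and above 0 at the other weeks, while Jchain is below 0 at all 3.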

How the data were processed

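RNA of 30 salivary glands was measured on Affymetrix whole-genome mouse arrays, and the 10 arrays of week 16 are described here. The deposited values are log2 intensities per probe set, from 2.757 to 14.457, with array medians of 5.487 to 5.537. No source used here gives the authors' probe summarisation and normalization, and limma is named in the submitters' processing notes without a version. Arrays have no read depth, and their number limits the precision.

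Of 45101 probe sets 34958 had 1 gene symbol in GEO's platform annotation, 932 had several and 9211 none. Each of 18194 genes was represented by its brightest probe set (mean of all 30 arrays), and 12999 genes passed a filter that required a value above the array's own median (50th percentile) in at least 5 of the 30 arrays. A model with 1 mean for each of 6 groups of 5 arrays was fitted with limma 3.58.1 in R 4.3.3 (lmFit and eBayes), followed by Benjamini-Hochberg adjustment over all genes, and effect differences between weeks came from contrasts of the same fit. The script was tested on simulated data. Array measures were compared with exact permutation tests in scipy 1.17.1, and figures were drawn with matplotlib 3.10.9.

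The genes and the 42 gene lists, and 4 further lists, were chosen with earlier results of these data known, so list counts are descriptions. Genes named in the text were Cd40lg, Cd40, the 15 largest rises and falls among called genes, called members of lists and up to 2 uncalled members of each. Kappa variable genes that the rule selects and that are not reported by name stay in the counts. Ogn, Cpxm1, Smoc2, Igfbp5 and the other proteoglycan-list genes except Lum, the nucleotide and glycan genes except Ugt8a, Kif22, Nostrin, Xbp1, Cxcl13, Ckm, Klk1 and Amy1 fall outside this rule and were chosen after their values were seen. The alternatives tried changed the normalization, the filter, the choice of probe set, the arrays included and the covariates.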

Additional observations from a re-analysis of the deposited data

Results flagged for a closer look

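Within a group of 5 arrays, 1 array can stand apart from the other 4. Dixon's test at the 95% level found this in 12 of 274 groups of named genes, and chance alone gives about 1 in 20. In anti-CD40L replicate 4, Igll1 was low at 4.629, Fos was high at 9.625 and Rbp4 was high at 5.853. In anti-CD40L replicate 2, Cxcl12 was high at 8.883 and Ramp2 at 7.811, and Psmb9 was low at 7.545 in anti-CD40L replicate 5. Among controls, Glycam1 was high at 6.336 and the parotid gene Prpmp5 at 7.65, both in replicate 4. Lum was low at 10.198 and Tjp3 high at 7.796 in control replicate 5, Timp1 was high at 5.951 in control replicate 1, and Kit was high at 7.616 in control replicate 2.

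The treatment effect of some named genes differed between weeks by the test of the difference itself. The week 16 effect minus the week 24 effect was -1.52 for Igha, 3.23 for Ttr, 1.94 for Folh1, 1.78 for Ugt8a, 2.41 for Ighg3 and 0.79 for Fkbp11. It was 2.16 for S100a8, 1.85 for S100a9, -1.26 for Dnajb9, -1.06 for Col6a3, -1.70 for Col1a2 and -1.05 for Bhlha15, a transcription factor of secretory cells. The week 16 effect minus the week 8 effect was 2.20 for Arntl, -0.95 for Nr1d2 and 1.49 for Ugt8a. The calls of Fkbp11 and Bhlha15 against week 24 were lost without any of 6 and 8 arrays of week 16 (up to adjusted p = 0.0802 and 0.0974), and that of Nr1d2 against week 8 without any of 8 (up to 0.117).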

How the results depend on the processing

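The arrays included decided how many genes passed. Without any 1 array of week 16, limma called 74 to 220 genes in place of 245, 48 to 160 higher and 26 to 95 lower, fewest without control replicate 4 (74), anti-CD40L replicate 5 (78) and control replicate 1 (86). Of the 245 genes 66 passed without any 1 array. In arrays with Amy1 above 10 the counts were 31 (7 higher, 24 lower), and in those below 10 they were 41 (31 and 10). Chosen after seeing the data, leaving out anti-CD40L replicates 4 and 5 gave 52 (35 and 17), and leaving out control replicates 1 and 4 gave 35 (17 and 18). More genes passed with only the 10 arrays of week 16, 965 (652 and 313), with array weights, 1557 (1018 and 539), and with the 3' minus 5' difference as covariate, 450 (291 and 159). Quantile normalization gave 125 lower genes.

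For the effect difference from week 8, in place of 19, quantile normalization gave 57 (31 higher, 26 lower) and array weights 263 (128 and 135). Leaving out single arrays of week 16 gave 0 to 52 (0 to 29 and 0 to 23). For the effect difference from week 24, in place of 151, quantile normalization gave 265 (116 and 149) and array weights 764 (263 and 501). Leaving out single arrays of week 16 gave 46 to 158 (19 to 86 and 26 to 78). The titles do not say whether replicate numbers pair the samples. Correlations of same-numbered deviations were low, at -0.0959 to 0.100, which cannot exclude a pairing. With a replicate block 205 genes passed at week 16, 2 differed from week 8 (1 higher, 1 lower) and 111 from week 24 (43 and 68). With the median over probe sets, Fkbp11 became -0.22, Cxcl12 0.36 and Vav2 -0.14. The causes of these changes were not tested.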
